A study of Homo sapiens with 15 samples.

Results

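The cytosolic ribosomal protein genes were described in IMR32 neuroblastoma cells in which doxycycline switches on a hairpin that silences CDK2, a kinase of the G1/S transition. Members were all probe sets whose single gene symbol was RPL or RPS followed by a digit, or RPSA, RPLP0, RPLP1 or RPLP2, leaving out the RPS6K kinases and symbols of pseudogenes. This gave 63 genes, of 19775 that a probe set names alone, with 124 of the 54675 probe sets on each of 15 arrays. They comprised 52 subunit genes (32 of the large 60S and 20 of the small 40S subunit), 9 paralogues of subunit genes and 2 noncoding transcripts that carry the name of a subunit gene or a paralogue. A further 68 probe sets that name such a gene together with other genes were not used, and 25 subunit genes, among them RPL5, RPL10, RPL23, RPL26, RPLP0, RPSA and RPS27A, were not analysed here because no probe set names them alone.

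IMR32 is an established human neuroblastoma line. All samples came from 1 clone, IMR32-pcDNA6-CDK2sh, which carries a tetracycline/doxycycline repressor under a constitutive CMV promoter and a pTER vector with the CDK2 hairpin, and grew in 10% fetal calf serum. Total RNA was taken at times 0, 8, 24, 48 and 72 with 100 ng/ml doxycycline as the inducer, 3 arrays at each time. No unit of time stands in the labels, and they are taken as hours, as the study is known to have used. No later time without doxycycline was in the samples used here, so time in culture, doxycycline and loss of CDK2 cannot be told apart. The labels do not say that the 3 arrays of a time came from separate cultures, so every p-value reflects the spread of these arrays alone, which may be technical.

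Each value is an Affymetrix MAS5 signal, a linear brightness of a probe set, and the authors' values have a trimmed mean of 100.01 on every array. Changes are differences of log2(signal + 16), which understates the change of dim probe sets, and a gene was called where limma's Benjamini-Hochberg adjusted p over all 11774 genes tested was under 0.05. The targeted gene itself fell at every later time. CDK2 read 245.5, 236.0 and 213.7 at 0 h and 94.5 ± 5.6 by 8 h, then averaged 80.4 ± 7.7 by 24 h and 48.6 ± 7.4 by 48 h (SD, n = 3 each). By 72 h it averaged 30.1 ± 9.9. Of 10 neuroblastoma markers 8 passed the filter on low values, against 2 of 5 fibroblast, 0 of 5 immune, 1 of 4 endothelial and 1 of 5 epithelial markers. A probe set named alone 9 of the 10 neuroblastoma markers, 4 of the 5 immune markers and every marker of the other lists. A marker without one could not pass. The summed signal of the neuroblastoma markers was 12870 to 13768 at 72 h, against 10549 to 10935 at 0 h. In such bulk samples, fewer cells of a type and less RNA per cell cannot be told apart.

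A ribosome joins the 40S subunit, which reads the mRNA, to the 60S subunit, which forms the peptide bonds, and each subunit holds its proteins in fixed numbers on a core of ribosomal RNA. The mRNAs of most ribosomal proteins begin with a run of pyrimidines, the 5′ terminal oligopyrimidine (TOP) motif, through which mTOR signalling governs their translation together. Some paralogues are made in particular tissues or under particular signals, and in neuroblastoma the MYCN protein is known for driving ribosome production.

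The annotated starts of 46 subunit genes were in the RefSeq table (GRCh38.p14). A run of at least 5 pyrimidines covered the start or began within 5 bases of it in 40 of them (87%), in 3 of 7 paralogues (42.9%), and in 26.4% of 9657 genes tested on the arrays. The windows below show some of the member genes named in the results, 10 bases before the annotated start and 20 from it on. Among them are RPS27, RPL22 and RPL39, the subunit partners of the paralogues RPS27L, RPL22L1 and RPL39L. No start of RPL39L itself was available. Capitals mark the pyrimidine run.
RPL9 (chr4:39458903-39458932, minus strand): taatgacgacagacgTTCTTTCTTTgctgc
RPL36 (chr19:5690285-5690314, plus strand): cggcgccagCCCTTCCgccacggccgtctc
RPL19 (chr17:39200273-39200302, plus strand): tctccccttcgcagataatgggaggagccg
RPS27 (chr1:153990752-153990781, plus strand): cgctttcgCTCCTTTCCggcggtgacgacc
RPS27L (chr15:63157458-63157487, minus strand): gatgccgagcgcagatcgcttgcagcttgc
RPL22 (chr1:6199576-6199605, minus strand): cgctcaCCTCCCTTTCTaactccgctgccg
RPL22L1 (chr3:170870176-170870205, minus strand): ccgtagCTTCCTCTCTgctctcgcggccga
RPL39 (chrX:119791611-119791640, minus strand): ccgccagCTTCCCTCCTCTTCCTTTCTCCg
The run of RPL9 began at base 6 of the transcript as annotated, that of RPL39 was the longest of those shown at 22 bases, and the windows of RPL19 and RPS27L held none by this rule. The 10 bases of RPL19 before its annotated start are all pyrimidines, but that run ends there and so falls outside the rule. Over the whole 300-base promoters, searched on both strands, CCGGAAG, the core of an ETS-type site, was in 37% of the subunit genes, 28.6% of the paralogues and 19.6% of the genes tested. CACGTG, the E-box that MYC proteins bind, was in 4.35% of the subunit genes, 14.3% of the paralogues and 10.7% of the genes tested. AAGATGG, a YY1-type motif, was in 10.9% of the subunit genes, 14.3% of the paralogues and 7.82% of the genes tested. The 3 motifs were counted separately, and a match is a description of letters only.

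Of the 63 genes, 60 had a probe set past the filter on low values. RPL3L, a muscle paralogue of RPL3, and the noncoding RPL34-DT and RPL26L1-AS1 did not pass. Most subunit genes were not called at any time, and on the brightest probe set of each gene the greatest rise and the greatest fall at 72 h were both of paralogues. At 8 h no member was called in either direction (0 of 60), where limma called 0.45% of all genes, 0.0934% higher and 0.357% lower. Without the adjustment, 0 of the 60 had a limma p below 0.05. Of all 11774 genes, 723 reached that as rises and 393 as falls. At 24 h RPS27L rose and RPL9 fell, 2 of 60, where 13.5% of all genes were called, 7.74% higher and 5.72% lower. At 48 h 9 members rose and 4 fell, where 44% of all genes were called, 26.3% higher and 17.7% lower. At 72 h 20 members rose and 3 fell, where 55.5% of all genes were called, 32.8% higher and 22.7% lower. The moderated F test over the times, adjusted over all genes, called 20 of 60 members, 15 of 52 subunit genes and 5 of 8 paralogues, where it called 57% of all genes.

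**Figure D1:**
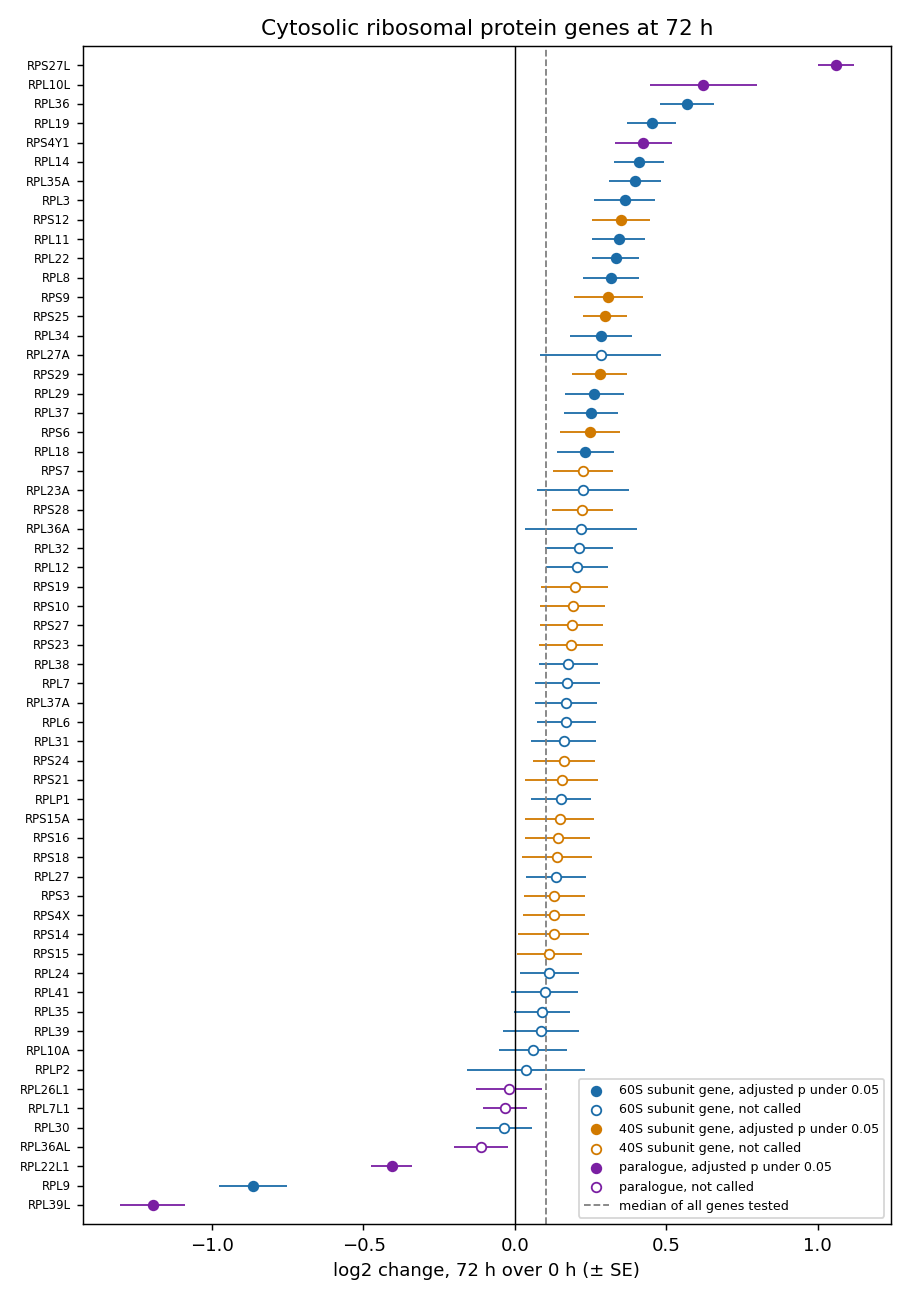
Log2 change at 72 h over 0 h (x axis) of the 60 member genes past the filter (y axis, in order of change), with the standard error as a bar, coloured by class; filled points had an adjusted p under 0.05 and the dashed line is the median of all genes tested. Most subunit genes lie between 0 and 0.5, RPL9 stands at -0.86, and the paralogues run from -1.20 for RPL39L to 1.06 for RPS27L.

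The signals of the subunit genes went up and down together from array to array, by small amounts. On the log2 scale their median change against 0 h was 0.00 at 8 h, where all genes had 0.02, and -0.00 at 24 h, where all genes had 0.05. It was 0.12 at 48 h, where all genes had 0.08, and 0.19 at 72 h, where all genes had 0.10. At 72 h 50 of the 52 were above their 0 h mean, where 58% of all genes were, and 17 rose while 1 fell, where 32.8% of all genes were called higher and 22.7% lower. The 32 genes of the 60S subunit had 12 risers, 1 faller and a median of 0.21 at 72 h, and the 20 of the 40S subunit 5 risers, 0 fallers and a median of 0.19. For 39 of the 52 the 95% interval of the 72 h change lay within 0.5 of 0 in either direction, as it did for 4105 of all 11774 genes.

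The median of the subunit genes on the single arrays, as a log2 difference from the 0 h mean, was 0.10, -0.09 and -0.01 at 0 h, 0.04, 0.08 and -0.12 at 8 h, and 0.13, 0.00 and -0.14 at 24 h. It was 0.39, -0.01 and -0.02 at 48 h, and 0.25, 0.14 and 0.19 at 72 h. All 3 arrays at 72 h were thus above all 3 at 0 h, while at 48 h replicate 1 alone was. The median of all genes tested was 0.10, 0.11 and 0.09 on the 72 h arrays, against 0.01, 0.00 and -0.01 at 0 h. By that measure too all 3 arrays at 72 h were above those of 0 h, as were those of 48 h (0.0905, 0.0864 and 0.065). Without 48 h replicate 1 the 48 h median of the subunit genes was -0.02, and 6 of 60 members were called (3 higher, 3 lower). The median of all genes and the share of them called without that array are not given here. These values therefore do not set the members against all genes. The highest signal of any probe set on that array was 11592, the greatest of the 15 arrays, whose lowest was 8126. It was the signal of RPS23, itself a subunit gene, and so is no measure apart from the members. What set this array apart was not tested. Across the 15 arrays the log2 values of a subunit gene correlated with the median of the other subunit genes with a median r of 0.94, above 0.8 for 42 of 52, and lowest for RPL9 at -0.23. The points of this description share each array's scaling. Some bright genes outside the members also read highest at 48 h on replicate 1, as EEF1A1 (10386, 7417 and 7467) and NPM1 (7438.5, 5748.7 and 5786.2). EEF1D did not (3186, 3058 and 3299). The correlation was not computed for other genes of like signal, so it is not shown to be particular to the subunit genes.

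**Figure D2:**
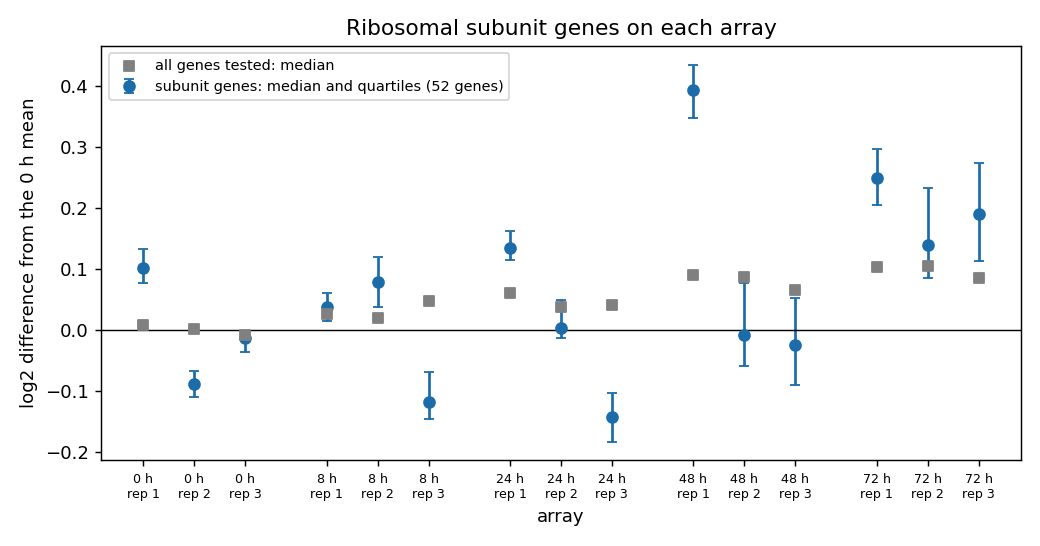
Log2 difference from the 0 h mean (y axis) on each of the 15 arrays (x axis, by time and replicate), as the median and quartiles of the 52 subunit genes (circles) and the median of all genes tested (squares). The subunit genes lie at 0.39 on 48 h replicate 1 and near 0 on the other 48 h arrays, and at 0.14 to 0.25 on the 72 h arrays.

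The shift differed with the scaling between arrays. With each array centred on its median, which moved the median of all genes at 72 h to -0.01, the subunit genes had a median of 0.07 at 72 h and 0.02 at 48 h, and with quantile normalisation 0.05 and 0.04. At 48 h the split of members was then 3 higher and 4 lower (centred) and 20 higher and 4 lower (quantile), against 9 and 4. The share of all genes called under these scalings is not given here, nor their median with quantile normalisation. These splits therefore do not set the members against all genes. The 28S ribosomal RNA control (its middle probe set) read 1499 to 2342 at 72 h, against 785 to 1132 at 0 h. Its part in these shifts was not tested.

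Among the 60S genes, as read by their brightest probe sets, RPL36 rose most. It read 3318, 3080 and 3012 at 0 h, 3185, 3335 and 3418 at 8 h, and 3288, 3384 and 3083 at 24 h. It read 4286, 3302 and 3380 at 48 h and 4277, 4674 and 5056 at 72 h. The 72 h arrays all lay above the 0 h arrays, and 1 of the 48 h arrays was as high. The change at 72 h was 0.57 ± 0.09 (SE; limma adjusted p = 3.3e-05), and the step after 48 h was 0.36 ± 0.09 (limma adjusted p = 0.015), a call that was lost without 48 h replicate 2 or 3 or 72 h replicate 3.

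RPL19, also of the 60S subunit, had 4614, 4226 and 4538 at 0 h and averaged 4632 ± 237 at 8 h and 4620 ± 270 at 24 h (SD, n = 3 each). It had 6160, 4880 and 5134 at 48 h and 6250, 5796 and 6257 at 72 h. Both later times lay above every 0 h array. It rose by 0.27 ± 0.08 at 48 h (SE; limma adjusted p = 0.013) and by 0.45 ± 0.08 at 72 h (limma adjusted p = 1.4e-04). RPL14 (0.41), RPL35A (0.40), RPL3 (0.36), which lies near the peptidyl transferase centre, and RPL11 (0.34), which with RPL5 and the 5S RNA can bind the p53 regulator MDM2, rose at 72 h too. RPL22 (0.33), RPL8 (0.32), RPL34 (0.28), RPL29 (0.26), RPL37 (0.25) and RPL18 (0.23) completed the 12 risers of the 60S subunit. Neither RPLP1 (0.15 ± 0.10, SE) nor RPLP2 (0.04 ± 0.19), the acidic proteins of the stalk that recruits the elongation factors, was called, and RPLP2 rests on a dim probe set.

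In the 40S subunit RPS12 (0.35), RPS9 (0.31), RPS25 (0.30), which internal ribosome entry sites use, RPS29 (0.28) and RPS6 (0.25), the substrate of the S6 kinases, rose at 72 h. On their brightest probe sets, RPS19, mutated in Diamond-Blackfan anaemia, was at 0.20 ± 0.11, RPS14, lost in the 5q- syndrome, at 0.13 ± 0.12, and RPS7, which can also bind MDM2, at 0.23 ± 0.10 (SE), and none of the 3 was called. Further probe sets of RPS19 (0.30 and 0.46) and of RPS7 (0.25) were called higher in the test over all probe sets (limma adjusted p = 0.020, 0.024 and 0.034). RPS3 (0.13 ± 0.10, SE), which also has a role in DNA repair, and RPS4X (0.13 ± 0.10), the X-linked partner of RPS4Y1, were not called either. RPS14 read 7927, 7348 and 7514 at 72 h, against 7495, 6468 and 6917 at 0 h, and the groups overlapped.

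At 48 h 6 subunit genes rose, RPL14, RPL19, RPL35A, RPL11, RPS25 and RPL22, with changes of 0.22 to 0.28, 6 of 52 where 26.3% of all genes were called higher. Each of these 6 calls was lost without 48 h replicate 1. At 72 h 10 of the 17 calls among subunit genes were kept whichever array was left out. They were RPL36, RPL19, RPL14, RPL35A, RPL3, RPS12, RPL11, RPL22, RPL8 and RPS25, and of these RPL8 alone was lost with arrays centred on their medians. The other calls, RPS9, RPL34, RPS29, RPL29, RPL37, RPS6 and RPL18, were each lost without 0 h replicate 2 and when arrays were centred, with a change of 0.23 to 0.31 with every array in the fit. Of the 15 fits that leave out an array, RPS6 and RPL18 each lost the call in 7. RPS9 and RPL29 lost it in 4, RPL34 and RPL37 in 3 and RPS29 in 1. Over all probe sets, the brightest of RPS6 and of RPL18 were not called (limma adjusted p = 0.056 each).

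RPL9, a protein of the 60S subunit, was the sole subunit gene called lower. It read 8225, 6973 and 7287 at 0 h and 7723, 7699 and 6486 at 8 h. It then read 5951, 5552 and 4360 at 24 h, 5599, 4445 and 4323 at 48 h, and 3998, 4235 and 4065 at 72 h. Every array from 24 h on lay below every array at 0 h and 8 h. By 8 h the change was -0.04, by 24 h -0.51 (limma adjusted p = 0.0058), by 48 h -0.65 (1.5e-04) and by 72 h -0.86 (4.3e-06), with an SE of 0.11 each. The 3 calls against 0 h were kept whichever array was left out and under both other scalings. RPL9 has 1 probe set among the members, so no further probe set bears on the fall.

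**Figure D3:**
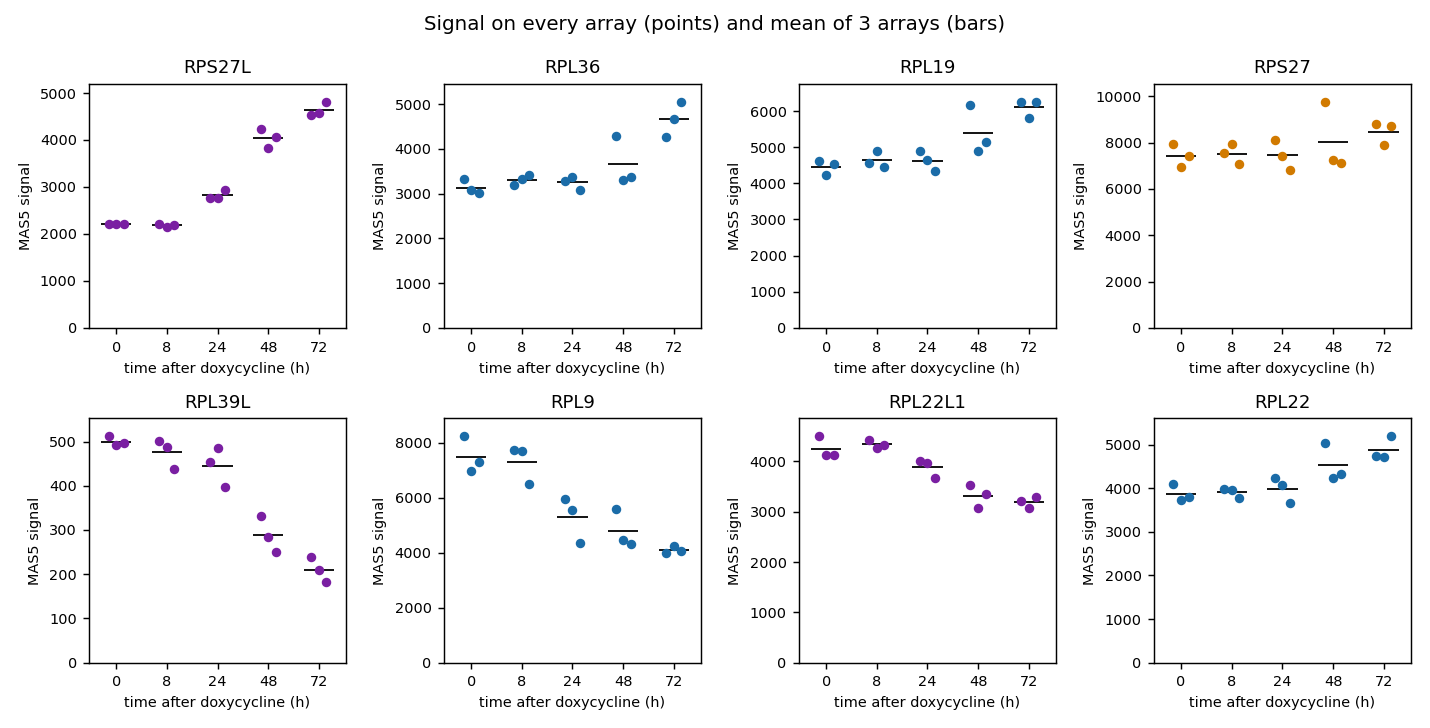
MAS5 signal (y axis, linear, from 0) by time after doxycycline in hours (x axis) for 8 member genes, with points for the 3 arrays of a time and a bar for their mean. RPS27L, RPL36 and RPL19 were higher at 72 h than at 0 h on every array, RPL39L, RPL9 and RPL22L1 were lower on every array, and RPS27 shows the single high array at 48 h.

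Of the 8 paralogues past the filter, 3 rose and 2 fell at 72 h, where 32.8% of all genes were called higher and 22.7% lower. RPS27L, a paralogue of RPS27 known as a p53-inducible gene, had the greatest rise among the genes as read by their brightest probe sets. It read 2219, 2214 and 2214 at 0 h, 2217, 2153 and 2198 at 8 h, and 2761, 2768 and 2927 at 24 h. It read 4242, 3836 and 4074 at 48 h and 4524, 4575 and 4814 at 72 h. Arrays of 24 h, 48 h and 72 h all lay above those of 0 h and 8 h. The change was 0.34 at 24 h, 0.86 at 48 h and 1.06 at 72 h (SE 0.06 each; limma adjusted p = 8.0e-04, 3.8e-09 and 7.4e-11), kept whichever array was left out and under both other scalings. Its subunit partner RPS27 was at 0.19 ± 0.10 at 72 h (SE; limma adjusted p = 0.13), with 8783, 7879 and 8727 at 72 h, against 7956, 6948 and 7400 at 0 h, and the groups overlapped. All 3 probe sets of RPS27L were called higher at 72 h, at 1.06, 0.72 and 1.53.

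RPL39L, a paralogue of RPL39 known from male germ cells, had the greatest fall. Its signal was 511, 493 and 496 at 0 h and 502, 487 and 439 at 8 h. It was 453, 485 and 397 at 24 h, 333, 284 and 251 at 48 h, and 238, 211 and 182 at 72 h. The 48 h and 72 h arrays lay below every array of the other times. It fell by 0.76 ± 0.11 at 48 h (SE; limma adjusted p = 1.9e-05) and by 1.20 ± 0.11 at 72 h (limma adjusted p = 4.5e-08), and kept both calls whichever array was left out. RPL39 itself was not called (0.09 ± 0.12 at 72 h).

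RPL22L1, whose transcript RPL22 protein is known to regulate, fell while RPL22 rose. RPL22L1 read 3210, 3081 and 3301 at 72 h, against 4495, 4124 and 4121 at 0 h. RPL22 read 4742, 4722 and 5187 at 72 h, against 4089, 3726 and 3803 at 0 h. Neither pair of groups overlapped. The change of RPL22L1 was -0.36 ± 0.07 at 48 h (SE; limma adjusted p = 3.1e-04) and -0.41 ± 0.07 at 72 h (limma adjusted p = 5.3e-05), and that of RPL22 was 0.22 ± 0.08 at 48 h (limma adjusted p = 0.025) and 0.33 ± 0.08 at 72 h (limma adjusted p = 0.0014).

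The remaining paralogues were RPL10L, RPS4Y1, RPL36AL, RPL26L1 and RPL7L1. RPL10L, a retrogene of RPL10 known from testis, was dim, with 32.8, 62.1 and 43.9 at 72 h, against 32.3, 25.7 and 15.1 at 0 h. Its lowest 72 h array was level with its highest 0 h array, and it rose by 0.70 ± 0.18 at 48 h and 0.62 ± 0.18 at 72 h (SE; limma adjusted p = 0.0038 and 0.0063). RPS4Y1, the Y-linked copy of RPS4X, rose by 0.33 ± 0.09 at 48 h and 0.42 ± 0.09 at 72 h (limma adjusted p = 0.0080 and 9.5e-04). RPL36AL, an expressed copy of RPL36A, fell by 0.25 ± 0.09 at 48 h (limma adjusted p = 0.029), a call lost without 0 h replicate 2 or 3 or 48 h replicate 1 or 2 and with quantile normalisation. It was at -0.11 ± 0.09 at 72 h and not called. RPL26L1, almost identical to RPL26, was at -0.02 ± 0.11 and RPL7L1, of pre-60S assembly, at -0.03 ± 0.07, both not called. Signals of near-identical copies can share probes, so the values of RPL26L1, RPL36AL, RPL10L and RPS4Y1 are uncertain to that extent.

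Neighbouring times were also compared. After 8 h, RPS27L rose by 0.36 and RPL9 fell by 0.47 by 24 h, 2 of 60 members where 5.78% of all genes were called, 2.54% higher and 3.24% lower. By 48 h, 3 members rose (RPL10L, RPS27L, RPS4Y1) and 2 fell (RPL39L, RPL22L1) relative to 24 h, where 22.9% of all genes were called, 12.4% higher and 10.5% lower. The RPL9 call after 8 h was lost without 8 h replicate 1 or 2 or 24 h replicate 3. Of the calls after 24 h, that of RPL10L was lost without 48 h replicate 2, that of RPS4Y1 without 24 h replicate 3 or 48 h replicate 1, and that of RPL22L1 without 24 h replicate 1 or 2 or 48 h replicate 2. The count of 5 was 19 with quantile normalisation, 14 with the mean of a gene's probe sets, 13 with the replicate block, 11 with probe sets ending in neither _x_at nor _s_at, and 3 with the compared arrays alone. The share of all genes called under each of these settings is not given here, so the counts describe stability alone. By 72 h, RPL36 and RPS27L rose and RPL39L fell relative to 48 h, where 10.7% were called, 4.54% higher and 6.14% lower. The RPS27L call of this last step had an adjusted p of 0.042 (limma) and was lost under 11 of the 15 fits that leave out an array, and the RPL39L call was lost without 48 h replicate 1 or 2 or 72 h replicate 3.

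The probe sets, tested singly over 27307, gave 41 higher and 4 lower of 112 at 72 h, where 46.4% of all probe sets were called, 27.1% higher and 19.3% lower. At 48 h 25 were higher and 5 lower, where 34.6% were called, 20.8% higher and 13.8% lower. At 24 h 4 were higher and 1 lower, where 8.68% were called, 4.68% higher and 4% lower, and at 8 h 0 of 112 were called, where 0.242% were. Among subunit probe sets with a signal of 2000 or more, 24 of 68 rose and 1 fell at 72 h, with a median of 0.21. Of the other 657 probe sets that bright, 18.3% rose and 36.5% fell, with a median of -0.05. Such other probe sets, here and in the lower bands, can include those that name a ribosomal protein gene together with other genes. Between 100 and 2000, 9 of 18 rose and 1 fell (median 0.43), where 30.2% of 12510 others rose and 27.5% fell (median 0.03). Below 100, 3 of 16 rose and 0 fell, where 24.8% of 14028 others rose and 11.4% fell.

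Within a gene, 29 genes had several probe sets past the filter, and none of them had probe sets called in opposite directions at any time. Of 52 further probe sets, 7 differed by over 0.5 from the gene's brightest at 72 h, 6 higher and 1 lower. Of 37 genes not called at 72 h, 18 had a further probe set past the filter, and in 7 of them a further probe set was called, higher in 6 and lower in 1. At that time 46.4% of all probe sets were called. These counts of further probe sets were not made over all genes, so they do not set the members apart. The next genes were chosen after their values were seen. A dim probe set of RPL31 read 414, 391 and 360 at 72 h, against 111, 110 and 97.3 at 0 h. It was at 0.48 at 24 h, 1.41 at 48 h and 1.73 ± 0.12 at 72 h (SE; limma adjusted p = 2.2e-09 over all probe sets), where the brightest probe set of RPL31 was at 0.16. A dim probe set of RPS15A read 343, 361 and 526 at 72 h, against 142, 125 and 163 at 0 h, a change of 1.40 ± 0.14 (limma adjusted p = 2.3e-07), where its brightest was at 0.15. In both cases the 72 h arrays lay far above the 0 h arrays.

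A further probe set of RPS23 was at 0.83, where its brightest was at 0.19, and a further one of RPS9, itself bright, at 0.88, where its brightest was at 0.31. A dim probe set of RPS24 went the other way, with 89.9, 93.8 and 119 at 72 h, against 169, 210 and 190 at 0 h, a change of -0.82 ± 0.13 (SE; limma adjusted p = 4.1e-05), where the brightest was at 0.16 and not called. Subunit probe sets whose ID ends in _x_at, which can match several transcripts, had a median change of 0.22 at 72 h (34 probe sets), those in _s_at 0.165 (36) and those in plain _at 0.27 (32).

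**Figure D4:**
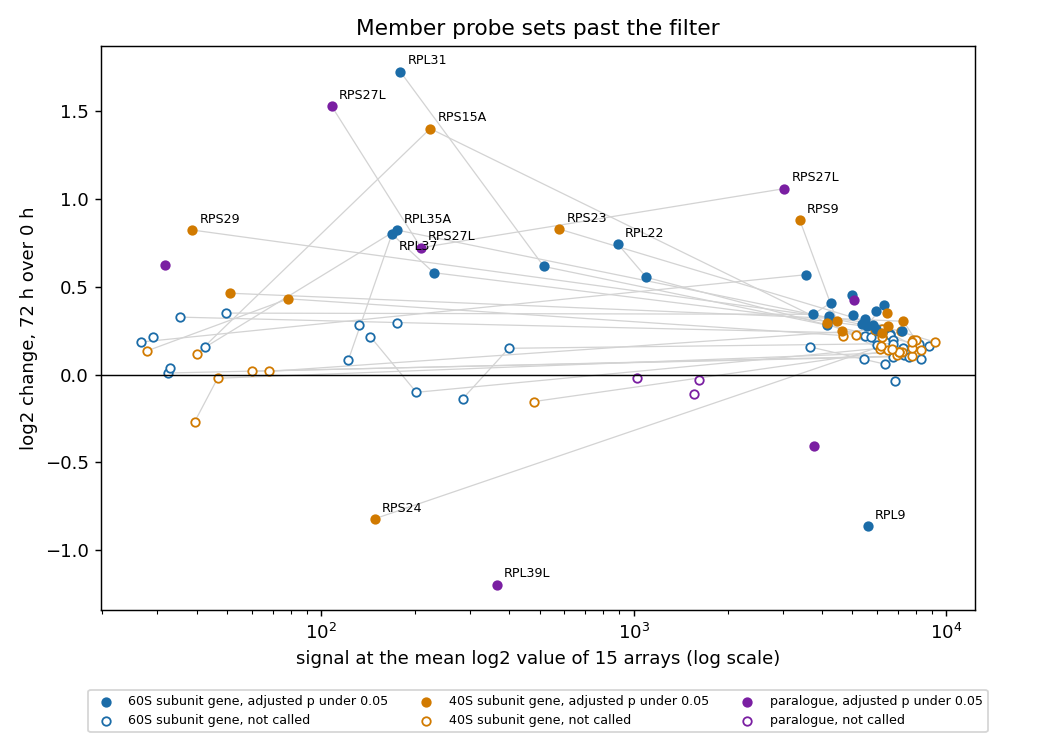
Log2 change at 72 h over 0 h (y axis) against signal on a log axis (x axis) for the 112 member probe sets past the filter, filled where the adjusted p was under 0.05, with grey lines joining probe sets of 1 gene. Bright subunit probe sets gather between 0 and 0.5, and dim probe sets of RPL31 (1.73), RPS15A (1.40) and RPS24 (-0.82) stand apart from the brightest of their gene.

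Other genes of the translation machinery moved in different directions. Of 16 listed translation factors and other genes with TOP mRNAs, 14 were measured, and 10 rose and 0 fell at 72 h (median 0.33), where 32.8% of all genes were called higher and 22.7% lower (median 0.10). At 48 h 9 rose and 0 fell, where 26.3% were called higher and 17.7% lower. The greatest were EEF1D (0.93) of the elongation factor complex and the initiation factor subunits EIF3H (0.69), EIF3F (0.66) and EIF3E (0.51). FAU, whose product is cleaved to the 40S protein eS30, rose by 0.19 ± 0.08 (SE; limma adjusted p = 0.042). Of 6 listed snoRNA host genes with TOP transcripts GAS5 alone was measured, and it was not called at 72 h. Of 32 ribosome assembly genes measured, 1 rose and 12 fell at 72 h (median -0.14), against the same 32.8% and 22.7% of all genes, among them LYAR (-0.71), BRIX1 (-0.68), UTP20 (-0.63) and the RNA polymerase I factor RRN3 (-0.57). The mitochondrial ribosomal proteins, which serve a separate ribosome, had 6 risers and 34 fallers of 75 at 72 h (median -0.18), with that background again, with MRPL32 (-1.37), MRPL48 (-1.25), MRPS16 (-1.07) and MRPS7 (-0.87) lowest. The difference between these lists and the subunit genes was not tested.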

How the data were processed

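RNA of 15 samples was hybridised to Affymetrix U133 Plus 2.0 arrays. The deposited values are linear signal intensities made by the authors with MAS5 and GCOS, per the submitters' processing notes, whose versions are not given in the sources used here. The 2% trimmed mean was 100.01 on each array; precision is limited by having 3 arrays a time. Of 54675 probe sets 62 were controls. Values were taken as log2(signal + 16), and 27307 probe sets whose mean reached the median over non-control probe sets (5.03, a signal of 16.6) were kept. Names came from GEO's platform annotation: 41091 probe sets named 1 gene, 1801 several and 11721 none. The brightest probe set stood for a gene (11774 genes). All 15 arrays were fitted together with limma 3.58.1 (R 4.3.3; lmFit, eBayes with trend), and calls used a Benjamini-Hochberg adjusted p under 0.05. The steps were tested on simulated data.

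The members and lists were chosen with earlier results of these data known. Named were the 6 greatest rises and falls called in each comparison, all paralogues, a fixed set of subunit genes, up to 4 called genes of each list and members below the filter; the remaining risers at 72 h and the further probe sets were named after their values were seen. Replicate numbers recur at each time in the labels. Residuals of same-numbered arrays correlated at -0.08 to 0.35 (30 pairs, median 0.12), and every pair was above 0.1 between 48 h and 0 h and between 72 h and 48 h. Those of arrays with different numbers correlated at -0.28 to 0.17 (60 pairs, median -0.08). The main fit held the time groups alone, so its p-values do not use the replicate numbers. Alternatives varied the pseudocount, scaling, filter, probe set rule, variance prior, array weights, arrays fitted, replicate block and threshold, and left out each array. Promoter sequences are RefSeq's (GRCh38.p14).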

Additional observations from a re-analysis of the deposited data

How the results depend on the processing

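Among the 48 calls of named genes, 1200 of 1375 alternative values kept the direction and the call, 175 kept the direction and lost the call, and 0 reversed. Of the 13 calls at 48 h 6 were kept whichever array was left out (RPS27L, RPL10L, RPS4Y1, RPL39L, RPL9 and RPL22L1), and of the 23 at 72 h 16 were. The cause of the differences below was not tested.

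Counts of members called changed as follows, here and below without the share of all genes called under the same setting. They describe how far the counts depend on the processing, and do not set the members against all genes. With quantile normalisation they were 24 at 48 h (13 as reported) and 19 for 48 h against 24 h (5), and for probe sets 3 at 24 h (5) and 50 at 48 h (30). With arrays centred on their medians they were 7 at 48 h and 15 at 72 h (23), and for probe sets 3 at 24 h. Asking also for a change of 0.5 left 1 at 24 h (2), 4 at 48 h, 5 at 72 h, 0 for 24 h against 8 h (2), 3 for 48 h against 24 h and 0 for 72 h against 48 h (3), and 2, 19 and 19 probe sets at 24, 48 and 72 h (45). The mean of a gene's probe sets gave 20 at 48 h, 14 for 48 h against 24 h and 1 for 72 h against 48 h. Probe sets ending in neither _x_at nor _s_at gave 11 and 1 for those last steps. Without the filter the 24 h against 8 h step had 1 and probe sets at 24 h 3. Fitting the compared arrays alone gave 39 at 72 h, 3 for 48 h against 24 h and 0 for 72 h against 48 h, which had 1 without any replicate 3 array.

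With the replicate number as a block, 18 members were called at 48 h, 30 at 72 h, 13 for 48 h against 24 h and 3 for 72 h against 48 h, and no call of a named gene was lost. Same-numbered arrays of 24 h and 48 h correlated at 0.067 to 0.17, so the numbers do not pair that step by the rule used.

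Leaving out 1 array at a time gave 0 to 0 members at 8 h, 2 to 2 at 24 h, 6 to 15 at 48 h, 16 to 30 at 72 h, 1 to 2 for 24 h against 8 h, 4 to 7 for 48 h against 24 h, 0 to 4 for 72 h against 48 h, and 17 to 24 by the F test. For probe sets it gave 0 to 0, 2 to 5, 20 to 32 and 32 to 57 at 8, 24, 48 and 72 h. The 48 h count was 6 without 48 h replicate 1 and 8 without 0 h replicate 2 or 3. The 72 h to 48 h step had 0 without 48 h replicate 2 or 72 h replicate 3. Signal over background limits RPLP2, RPL36A and RPL10L, which were dim on all arrays.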
